A study of Mus musculus with 40 samples.

Results

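The methylation of 6 genes of the fibroblast growth factor (FGF) axis was examined in mouse liver: the receptors Fgfr1, Fgfr2, Fgfr3 and Fgfr4, the co-receptor Klb (beta-Klotho) and the hepatic hormone gene Fgf21. The genes were chosen with earlier results of the same data in view. They were selected on the measured methylation values of 1 Fgfr1 CpG, chosen by its difference over the diet after weaning in the offspring of dams on a low fat diet. All cytosines of CpG dinucleotides listed in the gene bodies or within 5000 bp to each side were taken, which gave 301 of the 400298 cytosines in the table. Of these, 199 had at least 10 reads in at least 36 of 40 mice and were tested, out of 262317 in the whole table.

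The study asked whether the diet of the mother during pregnancy and lactation alters DNA methylation in the liver of the adult offspring. Livers of 40 male C57BL/6 mice (C57BL/6J in the methods) of 9 weeks were analysed by reduced representation bisulfite sequencing (RRBS), in which MspI cuts DNA at CCGG and bisulfite separates methylated from unmethylated cytosines. Dams received a low fat (LF) or a high fat (HF) diet from before mating until weaning, and their sons then received LF or HF, with 10 mice in each of the groups LF-LF, LF-HF, HF-LF and HF-HF (diet of the dam first, own diet second). The labels do not say which animals shared a dam. Each p-value therefore treats littermates as independent.

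FGF receptors are receptor tyrosine kinases of the cell surface. Endocrine FGFs bind them weakly and need a Klotho protein as a co-receptor: with Klb, Fgfr4 carries the intestinal FGF15 signal that represses bile acid synthesis in hepatocytes. Fgf21 is secreted mainly by the liver during fasting and metabolic stress, and acts on adipose tissue and brain through Fgfr1 and Klb. Fgfr2 and Fgfr3 mostly serve paracrine FGFs in development and repair. Start sites with many CpGs are commonly unmethylated in tissues, while gene bodies are commonly methylated.

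Reads at the listed CpGs summed to between 2969907 and 23345592 per mouse. At single cytosines of the 6 genes, the median number of reads over the mice ranged from 15 to 33, so that single values of a mouse carry a large counting error. Of 27 marker genes looked up to check the tissue label, 9 had a covered promoter, and 3 of the 8 hepatocyte markers were among them. Alb was not covered, and the label could not be checked by its defining genes.

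The sequences that carry the results are given on the strand of each gene in the mm9 (NCBIM37) build, with the CpGs of the table in capitals. The first is the Fgfr1 intron around the CpG that chose the gene (chr8:26630080-26630194, plus strand), which is the CpG within ctcCGgag. The second lies upstream of the Fgfr1 start (chr8:26625611-26625743, plus strand) and the third in an Fgfr2 intron (chr7:137355270-137355411, minus strand), where methylation is intermediate. The fourth holds both CpGs of Klb, in its first coding exon (chr5:65739654-65739748, plus strand), and the fifth holds 4 of the 8 cytosines upstream of Fgf21 (chr7:52874700-52874768, minus strand), inside the neighbouring gene Fut1.
Fgfr1 intron: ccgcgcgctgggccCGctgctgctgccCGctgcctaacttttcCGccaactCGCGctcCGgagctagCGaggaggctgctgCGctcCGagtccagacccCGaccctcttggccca
Fgfr1 upstream: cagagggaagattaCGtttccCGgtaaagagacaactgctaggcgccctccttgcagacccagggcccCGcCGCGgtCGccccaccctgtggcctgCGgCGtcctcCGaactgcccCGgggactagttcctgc
Fgfr2 intron: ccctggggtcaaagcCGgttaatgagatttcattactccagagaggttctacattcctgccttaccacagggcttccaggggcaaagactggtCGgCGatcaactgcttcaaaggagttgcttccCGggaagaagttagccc
Klb exon: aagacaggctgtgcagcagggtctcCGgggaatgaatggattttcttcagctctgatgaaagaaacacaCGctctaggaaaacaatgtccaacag
Fgf21 upstream: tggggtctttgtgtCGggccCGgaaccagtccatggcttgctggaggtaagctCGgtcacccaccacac

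Coverage differed widely between the genes. The table held 109 cytosines of Fgfr1 (84 tested), 79 of Fgfr2 (48 tested), 87 of Fgfr3 (53 tested), 16 of Fgfr4 (9 tested), 2 of Klb (both tested) and 8 of Fgf21 (3 tested). Klb was thus seen through 0.173% of the CpG cytosines in its region, and Fgfr3 through 7.98%. Of the 199 tested cytosines, 57.8% had a mean methylation level below 10%, 25.6% from 10% to 90% and 16.6% above 90%. The shares over the whole table were 53.9%, 28.3% and 17.9%, respectively.

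The receptor genes had little methylation at their starts, and levels beyond them ranged from low to high. Of all cytosines listed, 14 of Fgfr1, 13 of Fgfr2, 7 of Fgfr3 and 4 of Fgfr4 had means above 90%, and 21, 17, 23 and 2 had means from 10% to 90%. Taking the mean over the listed cytosines, the Fgfr1 start was at 1.89% (66 cytosines over 1244 bp, lowest mouse 1.20%, highest 3.64%), the Fgfr2 start at 1.40% (49 cytosines over 760 bp), the first part of Fgfr3 at 1.36% (52 cytosines over 1071 bp) and the Fgfr4 start at 2.51% (11 cytosines over 200 bp). In the Fgfr1 body, groups of cytosines between 15800 and 53992 bp from the start averaged 87.7% to 97.6%. A trio of intronic CpGs 24625 to 24665 bp from the start stood apart from these, at 6.44% ± 4.40 (SD, n = 33 mice), and was covered in too few mice to be tested. The exonic groups of Fgfr2 averaged 93.7% and 93.8%, and those of Fgfr3 averaged 90.9% and 92.6%.

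**Figure D1:**
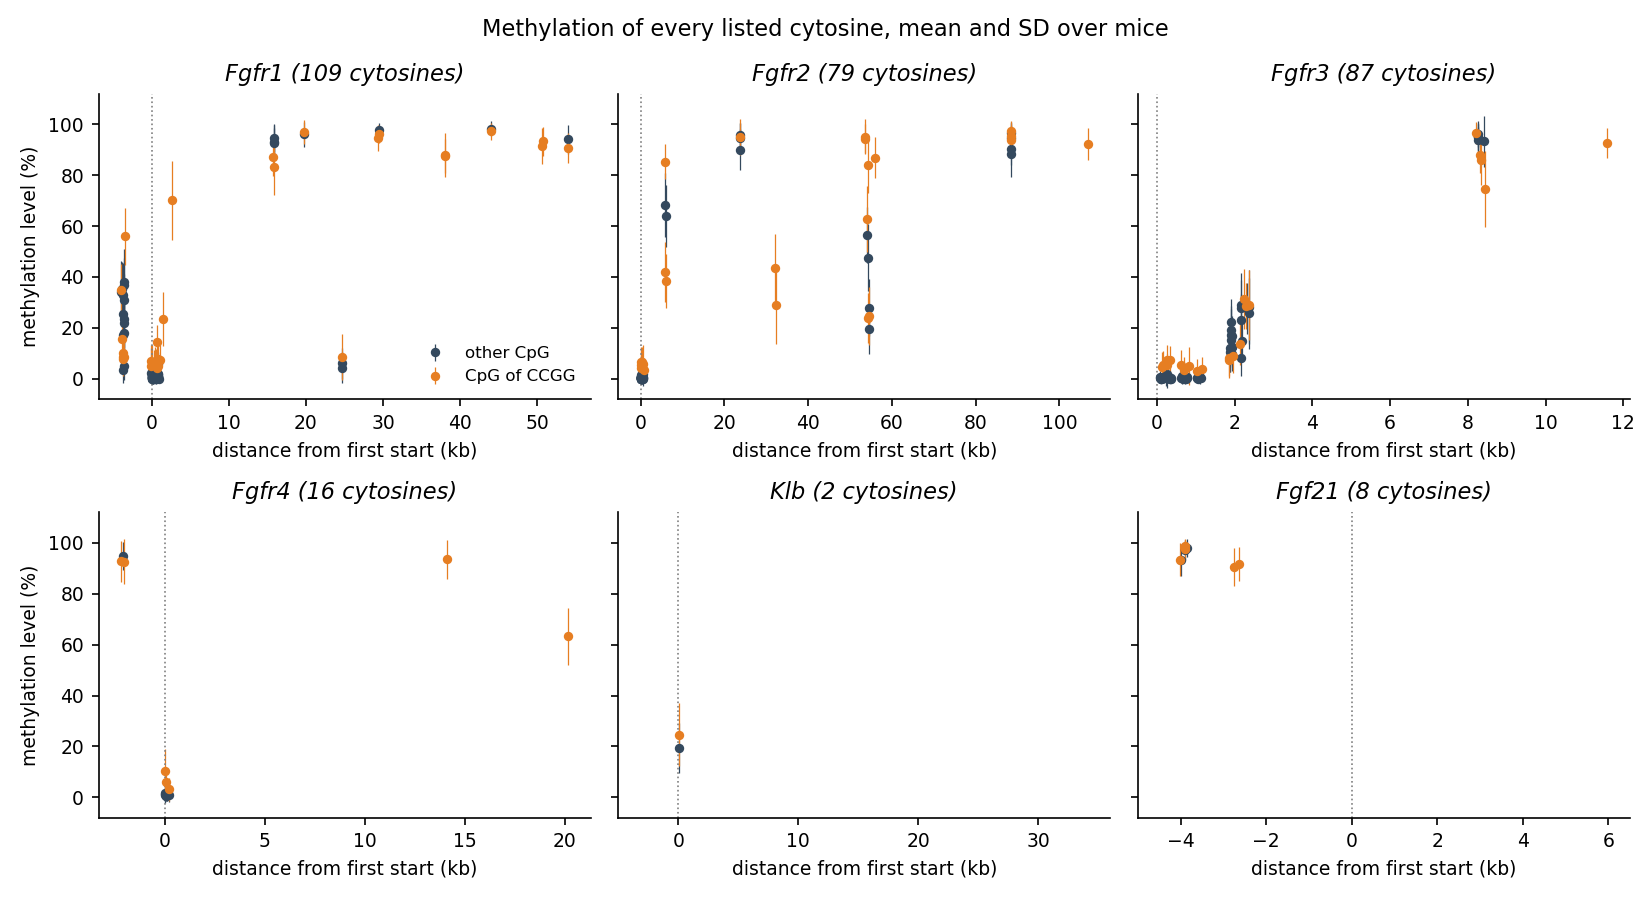
Methylation level (percent, mean and SD over mice) of every listed cytosine against its distance in kb from the start of the gene's first listed transcript, with CpGs of a CCGG site in orange. The 4 receptor genes sit near 0 at their starts and range from low to high levels farther from them, Klb is at 24.6% and 19.3%, and all 8 cytosines of the Fgf21 region lie upstream and above 90%.

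Intermediate methylation was found in defined stretches of 3 receptor genes. Upstream of the Fgfr1 start, 20 intronic cytosines of a longer transcript (at -3947 to -3369 bp from the start) had means from 3.54% to 55.9%, with an average of 23.3% ± 3.64 (SD over 40 mice). In Fgfr2, 8 intronic cytosines within 364 bp ranged from 19.4% to 84.1% and averaged 43.4% ± 5.74 (SD over 40 mice). A further 5 intronic cytosines of Fgfr2, 5721 to 5975 bp from the start, ranged from 38.6% to 85.3% and averaged 59.5% ± 7.60 (SD over 40 mice), and 2 others, 32197 and 32298 bp from the start, averaged 36.3% ± 11.3 (SD over 38 mice). Neighbouring cytosines in these stretches could differ strongly: at the Fgfr2 intron, the 4 cytosines of the printed sequence lay between 19.4% and 27.9%, while those beyond it, 54111 to 54226 bp from the start, lay between 47.6% and 84.1%. In Fgfr3, 25 cytosines 1862 to 2381 bp from the start ranged from 7.33% to 31.3% and averaged 18.4% ± 3.32 (SD over 40 mice), between the unmethylated first part and the methylated exons.

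**Figure D2:**
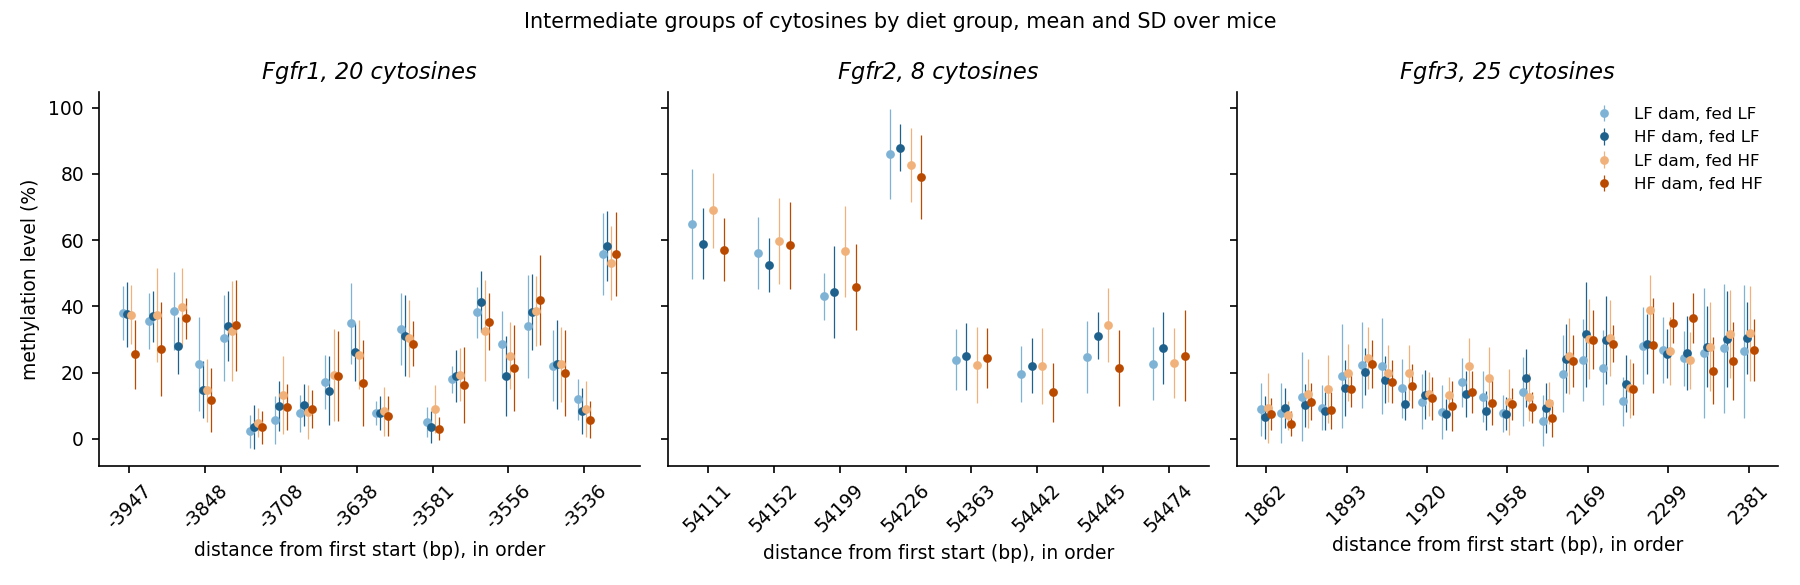
Methylation level (percent, mean and SD over the mice of each diet group) of the cytosines in the intermediate stretches of Fgfr1 (20 cytosines), Fgfr2 (8) and Fgfr3 (25), in the order of their distance in bp from the first start. Averaged over a stretch, the group means lie between 21.3% and 24.2% in Fgfr1 and between 17.2% and 20.4% in Fgfr3, and reach 46.2% in the LF-HF group in Fgfr2, where the other 3 are lower.

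Klb, which binds FGF15 and Fgf21 and sets which cells respond to them, was intermediate near its start. Its 2 cytosines, 54 and 98 bp from the start in the first coding exon, had means of 24.6% and 19.3%. At the first, LF-LF mice ranged from 2.94% to 46.2% (median 17.9%, n = 9) and HF-LF mice from 10.5% to 48.6% (median 20.7%, n = 10). LF-HF mice ranged from 12.5% to 40% (median 27.1%, n = 8) and HF-HF mice from 11.8% to 60% (median 29.4%, n = 9). All 4 groups overlapped. The mean was higher in the groups fed HF than in those fed LF at both cytosines: 26.1% against 19.4% (LF dams) and 31.1% against 22.3% (HF dams) at the first, and 22.5% against 15.96% and 23.3% against 15.98% at the second. Both cytosines lie within 45 bp and may be read on the same fragments, so they are not separate observations. For single cytosines, post-weaning diet is described without a test because it chose the genes. Between maternal diets, the first cytosine differed by 5.03 percentage points in mice fed HF (95% interval -6.99 to 17.0, exact permutation test, two-sided p = 0.407) and by 2.86 in mice fed LF (-9.26 to 15.0, exact permutation p = 0.624). At the second, the differences were 0.757 (-9.12 to 10.6, exact permutation p = 0.874) and 0.0196 (-9.30 to 9.34, exact permutation p = 0.997). The HF-LF mouse numbered 2, at 48.6% and 42.9%, stood far above its group. Without it, left out after seeing the data, the differences in mice fed LF were -0.0626 and -2.97, so that both changed sign. At the first cytosine the intervals leave room for differences of over 10 percentage points.

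Fgfr4, the main FGF receptor of hepatocytes, was unmethylated at its start and methylated around it. The 3 upstream cytosines, at -2189 to -2038 bp from the start, averaged 93.3%, and 1 intronic cytosine 14126 bp into the gene was at 93.5%. The cytosine 20174 bp from the start, beyond the end of the gene, was at 63.3%. It was at 71.1% ± 12.1 (SD, n = 9) in HF-LF mice and at 60.7% ± 5.58 (SD, n = 10) in LF-LF mice, a difference of 10.5 percentage points (95% interval 1.48 to 19.4, exact permutation p = 0.0263, FDR 0.818). Its unadjusted p was 0.0575 in the quasi-binomial model. The groups overlapped, with 45.8% to 83.3% against 51.9% to 69.2%. The means of HF-HF and LF-HF mice were 62.7% and 58.9% (exact permutation p = 0.489).

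The table listed no cytosine within Fgf21 or its promoter. The 8 cytosines lay at -4009 to -2639 bp from its start, inside Fut1, and had means of 90.5% to 98.5%. The level over the 3 tested cytosines was 95.2% ± 3.15 (SD, n = 39), and differed between maternal diets by 0.285 percentage points in mice fed HF (95% interval -3.06 to 3.63) and by 1.94 in mice fed LF (-0.773 to 4.65). These cytosines say nothing about the Fgf21 promoter itself, which was not analysed here.

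The Fgfr1 CpG that chose the gene lies on the plus strand at chr8 position 26630138, in an intron 874 bp from the first start, within a CCGG site of the unmethylated start region. It was at 0% in 8 of 10 LF-LF mice, with 5% as the highest value (mean 0.976%, 3 methylated of 252 reads). LF-HF mice ranged from 4.55% to 12.5% (mean 8.71%, n = 9, 21 of 232 reads), and none was at 0%. HF-LF mice had a mean of 6.66% (0% to 11.1%, n = 10, 19 of 269 reads) and HF-HF mice of 4.45% (0% to 9.38%, n = 10, 13 of 257 reads). The LF-LF and LF-HF groups nearly separated, and both groups with HF dams overlapped with each of them. No test is given, since these values selected the CpG.

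The opposite strand of the same CpG did not have this order of groups. The minus strand cytosine was at 9.84% ± 9.30 (SD, n = 9) in LF-LF, 7.14% ± 5.83 (n = 9) in LF-HF, 5.93% ± 3.66 (n = 10) in HF-LF and 9.22% ± 9.55 (n = 10) in HF-HF mice. The groups overlapped throughout. The LF-LF mouse numbered 1, at 33.3% (5 of 15 reads), stood far above its group, with the next at 12.1%, and raised the LF-LF mean. The other 9 listed cytosines within 100 bp had means of 0.0733% to 5.71%.

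**Figure D3:**
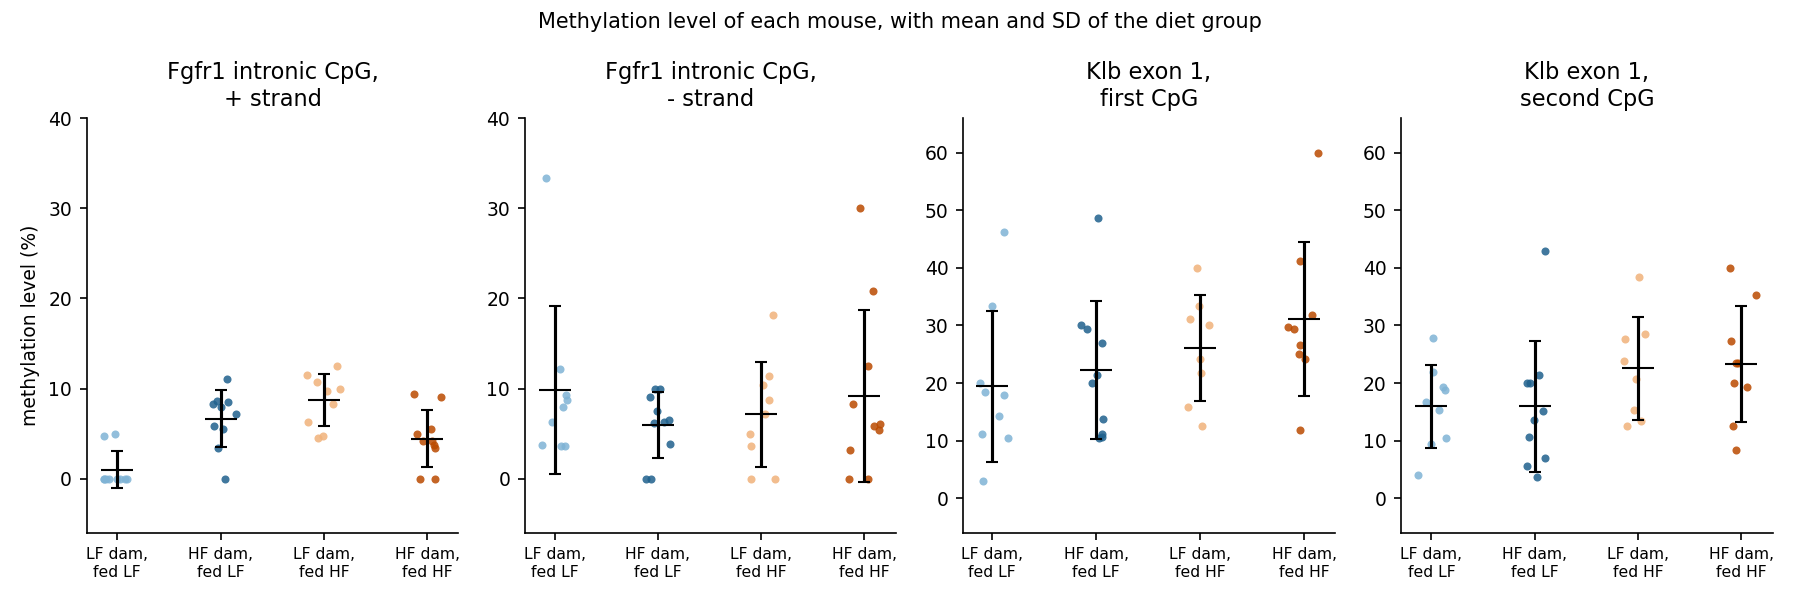
Methylation level (percent) of each mouse, by diet group, at both strands of the Fgfr1 intronic CpG and at both Klb cytosines, with the mean and SD of each group in black. On the plus strand of the Fgfr1 CpG the LF-LF group (LF dam, fed LF) sits at 0.976% on average and the other 3 at 4.45% to 8.71%, an order that is not seen on the minus strand. The Klb groups overlap.

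The mean of this CpG over all mice was typical of its sequence context. Among tested cytosines of the 6 genes with a mean below 10%, the 25 in a CCGG site averaged 6.47% and ranged from 3.29% to 9.99%. The 90 others averaged 0.905%, and 4 of them were above 3%. The same held over the whole table, at 5.66% for 32453 cytosines of CCGG and 1.06% for 108678 others. The mean of 5.11% at the Fgfr1 CpG, and of 8.01% on its opposite strand, fell in the range of the CCGG cytosines. Of the group means at the Fgfr1 CpG, that of LF-LF mice, 0.976%, lay below this range of means over all mice. Those of LF-HF, HF-LF and HF-HF mice, 4.45% to 8.71%, lay within it. The part of the cut site in the diet values was not tested. CCGG cytosines made up 30.6% of those listed in the 6 genes and 36.1% of the whole table.

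**Figure D4:**
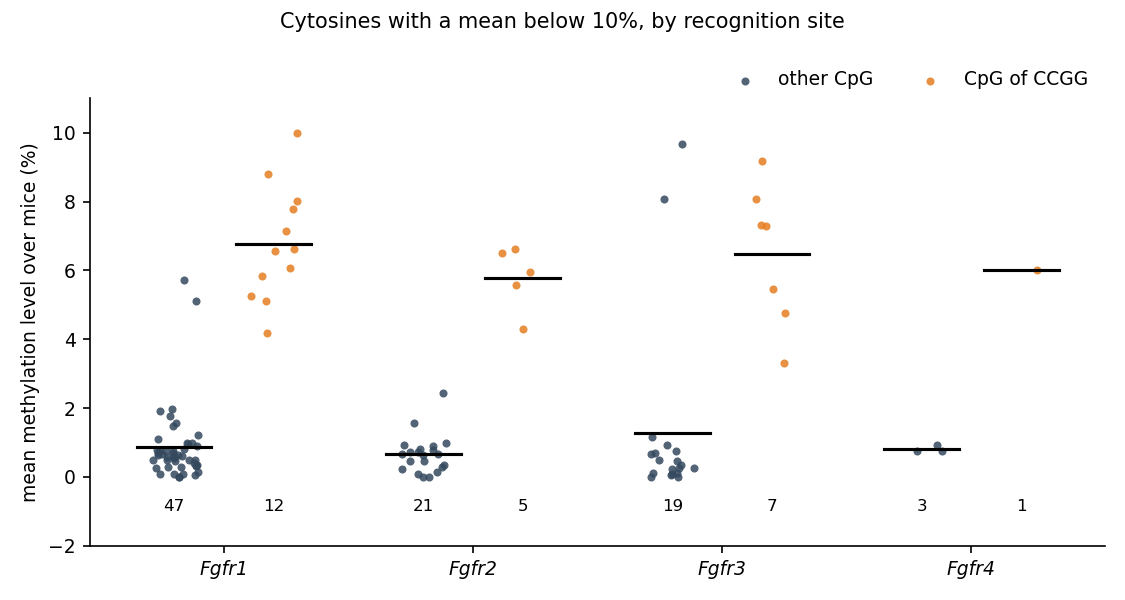
Mean methylation level over mice (percent) of each tested cytosine below 10% in the 4 receptor genes, split into CpGs of a CCGG site (orange) and others (dark), with the mean as a line and the number of cytosines below. All 25 CCGG cytosines lie above 3%, against 4 of the 90 others.

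Maternal diet was compared within each post-weaning diet. In mice fed HF, 11 of the 182 cytosines with a p-value had an unadjusted p below 0.05 (5 higher and 6 lower in the offspring of HF dams), which is 6.04% beside 3.72% over the whole table (1.52% higher and 2.19% lower). Without the Fgfr1 CpG that chose the gene, 10 were left. Of 183 in mice fed LF, 5 did (4 higher and 1 lower), or 2.73% beside 3.99% (2.39% higher and 1.6% lower), and 4 without that CpG. With the quasi-binomial model the counts were 7 in mice fed HF (3.85% beside 4.59% over the whole table by the same model) and 2 in mice fed LF (1.09% beside 4.69%). By limma they were 12 of 199 (6.03% beside 4.42%) and 11 of 199 (5.53% beside 6.14%). The share in mice fed HF thus lay above that of the whole table in the main test and by limma, and below it with the quasi-binomial model. At an FDR of 5%, 0 cytosines of the 6 genes passed in either comparison, as did 0% of the whole table, and a quasi-binomial model and limma also gave 0 in the 6 genes. The lowest FDR in the 6 genes was 0.822 in mice fed HF and 0.818 in mice fed LF.

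In mice fed HF, the smallest p-values of Fgfr2, Fgfr3 and, beside the CpG that chose the gene, Fgfr1 lay in the intermediate stretches. The smallest of these was at an Fgfr3 intronic CpG 2307 bp from the start (chr5 position 34066680), at 36.5% ± 7.43 (SD, n = 10) in HF-HF mice and 23.7% ± 8.46 (SD, n = 10) in LF-HF mice, a difference of 12.8 percentage points (95% interval 5.32 to 20.3, exact permutation p = 0.00210, FDR 0.822). The ranges, 24.0% to 50% and 9.09% to 40%, overlapped. A neighbour 8 bp away (position 34066672) was higher by 8.58 percentage points (exact permutation p = 0.0361), while another cytosine of the same stretch (position 34066297) was at 14.2% in HF-HF and 22.1% in LF-HF mice (difference -7.88, exact permutation p = 0.0344). The stretch as a whole was at 18.1% ± 3.08 in HF-HF and 20.4% ± 2.73 in LF-HF mice (SD, n = 10 each). Position 34066680 was at 26.0% in HF-LF and 24.4% in LF-LF mice (exact permutation p = 0.719).

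In the Fgfr2 intron printed above, position 137355314 was at 21.3% ± 11.5 (SD, n = 10) in HF-HF mice and at 34.3% ± 11.2 (SD, n = 10) in LF-HF mice, a difference of -13.0 percentage points (95% interval -23.7 to -2.40, exact permutation p = 0.0205, FDR 0.822). Its unadjusted p was 0.0542 in the quasi-binomial model. The cytosine 3 bp away was at 14.0% and 21.9% in the same groups (exact permutation p = 0.105). In HF-LF and LF-LF mice, position 137355314 was at 31.2% and 24.7% (exact permutation p = 0.136). Upstream of Fgfr1, position 26625317 was at 25.6% ± 10.5 (SD, n = 10) in HF-HF against 37.5% ± 8.89 (SD, n = 10) in LF-HF mice, a difference of -12.0 percentage points (95% interval -21.1 to -2.85, exact permutation p = 0.0127, FDR 0.822). The same cytosine was at 37.7% in HF-LF and 38.0% in LF-LF mice (exact permutation p = 0.939).

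In mice fed LF, the smallest p-values of Fgfr1 and Fgfr3 other than at the CpG that chose the gene lay in methylated exons. An Fgfr3 coding exon cytosine (chr5 position 34075963) was at 95.7% ± 3.27 (SD, n = 10) in HF-LF and at 90.3% ± 4.86 (SD, n = 8) in LF-LF mice (difference 5.40, 95% interval 1.33 to 9.46, exact permutation p = 0.0137, FDR 0.818), and its unadjusted p was 0.0858 in the quasi-binomial model. In mice fed HF the order was the opposite, at 90.04% in HF-HF and 93.6% in LF-HF mice (exact permutation p = 0.274). An Fgfr1 exon cytosine (chr8 position 26679977) was at 93.7% and 88.0% in the same groups (difference 5.66, 95% interval 0.167 to 11.1, exact permutation p = 0.0459, FDR 0.818). Its unadjusted p was 0.137 in the quasi-binomial model and 0.211 by limma. The smallest p of Fgfr2 was at the start of the gene (chr7 position 137409346). Its means were 7.94% in HF-LF and 3.16% in LF-LF mice (exact permutation p = 0.0529), against 6.30% and 7.10% on the opposite strand. For Fgf21 the smallest were at position 52874747 in mice fed LF (98.9% in HF-LF and 96.8% in LF-LF, exact permutation p = 0.144) and at position 52873499 in mice fed HF (91.2% in HF-HF and 88.8% in LF-HF, exact permutation p = 0.533). For Fgfr4 in mice fed HF it was the intronic cytosine, at 89.9% in HF-HF and 94.9% in LF-HF mice (exact permutation p = 0.197).

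**Figure D5:**
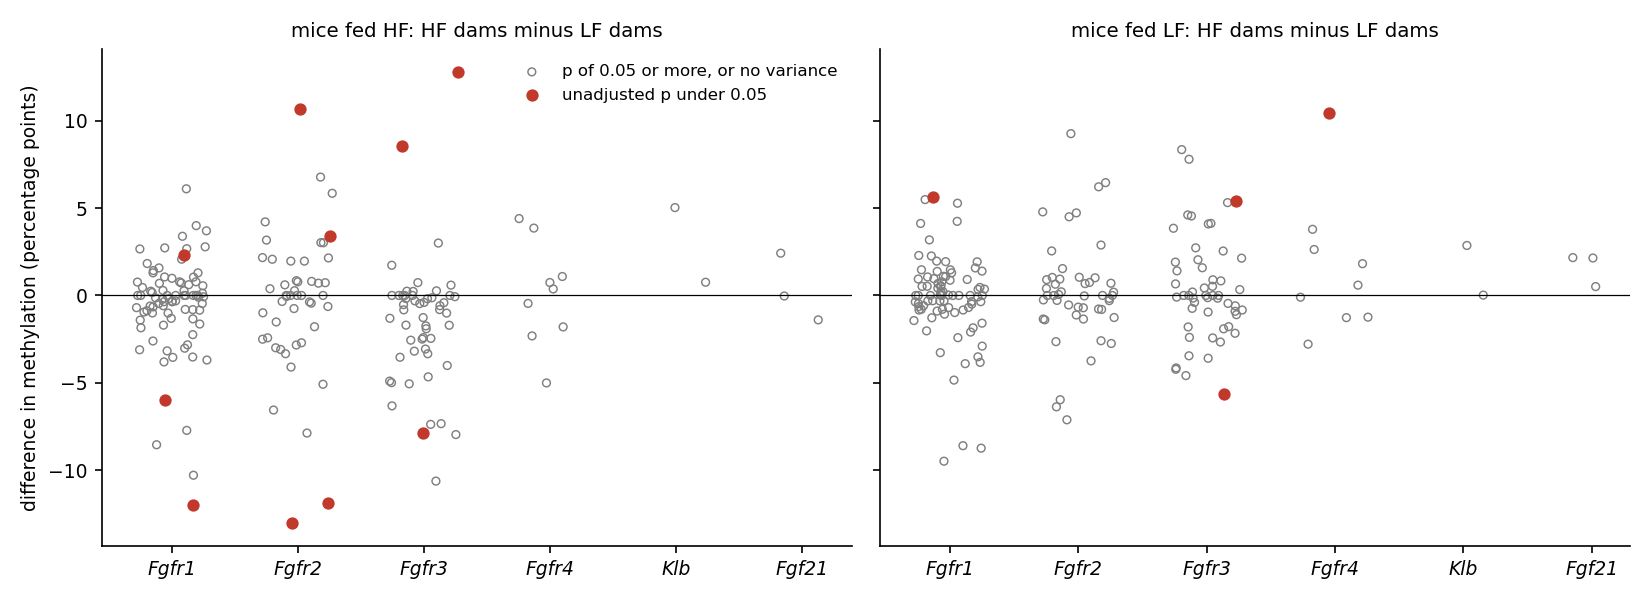
Difference in methylation (percentage points, offspring of HF dams minus offspring of LF dams) at each tested cytosine of the 6 genes, in mice fed HF and in mice fed LF, without the Fgfr1 CpG that chose the gene. Filled points mark an unadjusted p below 0.05 (10 in mice fed HF, 4 in mice fed LF), and none has an FDR below 5%.

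Levels over whole genes and promoters (1000 bp before to 500 bp after any annotated start) differed by at most 1.94 percentage points between maternal diets when averaged over the tested cytosines. The gene level of Fgfr1 was 20.6% ± 0.839 (SD, n = 10) in HF-HF mice and 21.3% ± 1.08 (SD, n = 10) in LF-HF mice, a difference of -0.684 percentage points (95% interval -1.59 to 0.222). In the same comparison Fgfr2 differed by -0.207 (-1.68 to 1.27), Fgfr3 by -1.24 (-2.68 to 0.209) and Fgfr4 by -0.124 (-3.23 to 2.98). Between HF-LF and LF-LF mice the differences were -0.118 (-0.830 to 0.595) for Fgfr1, 0.211 (-0.755 to 1.18) for Fgfr2, 0.341 (-1.35 to 2.03) for Fgfr3 and 1.44 (-0.261 to 3.15) for Fgfr4. Promoter levels of Fgfr1, Fgfr2 and Fgfr4 differed by -0.0642, 0.173 and 0.435 percentage points in mice fed HF and by -0.0862, 0.182 and -0.506 in mice fed LF. As computed here, no level of the 5 genes with one (Klb had too few cytosines) had an unadjusted p below 0.05, where 4.54% of promoters and 5.02% of genes did over the whole annotation in mice fed HF, and 5.15% and 6.46% in mice fed LF. Other ways to form the level gave differences with an unadjusted p below 0.05. With reads pooled these were 4.04 for the Fgfr2 promoter (fed HF) and 7.19 for the Fgfr4 gene (fed LF), and with all cytosines as deposited 1.47 for the Fgfr4 promoter (fed HF) and 1.43 for Fgf21 (fed LF). Over the 5 Fgfr3 cytosines covered in all mice it was 4.25 (fed HF), opposite in sign to the value above. The starts of short transcripts inside Fgfr3 put all of its tested cytosines into the promoter class, so that its promoter level equals its gene level.

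Over all 40 mice, the term of maternal diet had an unadjusted p below 0.05 at 12 of 193 cytosines of the 6 genes, or 6.22% beside 3.96% over the whole table. The interaction of both diets had one at 7 of 193, or 3.63% beside 4.18%, and at 6 without the Fgfr1 CpG that chose the gene. Neither had a cytosine with an FDR below 5% in the 6 genes. With total reads as a covariate, the maternal term gave 8 of 193 (4.15% beside 4.18% of the whole table). By limma it gave 13 of 199 (6.53% beside 5.75%), and with all cytosines as deposited 14 of 292 (4.79% beside 3.84%). For post-weaning diet, from which nothing is read because it chose the genes, the counts were 7 of 186 cytosines in the offspring of LF dams (6 without the Fgfr1 CpG, which this contrast chose), beside 4.03% of the whole table, and 9 of 182 in the offspring of HF dams, beside 4.06%.

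For each gene, the cytosine with the largest post-weaning difference in a linear model over both maternal diets is described without a test. Within 1 maternal diet, other cytosines could differ more. In the Fgfr1 stretch upstream of the start, position 26625626 was at 34.9% ± 12.3 (SD, n = 8) in LF-LF, 25.5% ± 10.3 (n = 10) in LF-HF, 26.2% ± 8.80 (n = 10) in HF-LF and 16.9% ± 13.0 (n = 9) in HF-HF mice. It was lower in mice fed HF for both maternal diets, and the groups overlapped. An Fgfr2 intronic cytosine 32298 bp from the start (position 137377461) was at 19.2% ± 13.0 (SD, n = 10) in LF-LF, 36.7% ± 16.2 (n = 9) in LF-HF, 28.4% ± 13.8 (n = 10) in HF-LF and 33.7% ± 12.8 (n = 7) in HF-HF mice. The groups overlapped. One HF-HF mouse was at 60% (6 of 10 reads), and without it the HF-HF mean was 29.3%, close to that of HF-LF mice. In Fgfr3, position 34066523 was at 14.3% in LF-LF, 12.7% in LF-HF, 18.4% in HF-LF and 9.60% in HF-HF mice. For Fgfr4, Klb and Fgf21 the cytosines were the one beyond the Fgfr4 end, the first Klb cytosine and Fgf21 position 52873499, the last at 92.8% in LF-LF, 88.8% in LF-HF, 93.3% in HF-LF and 91.2% in HF-HF mice.

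The spread between mice was close to what the number of reads gives. At the 51 tested cytosines of the 6 genes with a mean from 10% to 90%, the SD within diet groups had a median of 10.4 percentage points, and the SD from binomial sampling of the reads a median of 9.13. The ratio of both, taken at each cytosine, had a median of 1.12, and of 1.14 over the whole table. By gene, this median was 1.15 in Fgfr1, 1.13 in Fgfr2, 1.11 in Fgfr3 and 1.24 at the 2 Klb cytosines, and the ratio was 0.935 at the 1 Fgfr4 cytosine.

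A list of 34 other genes of the pathway, of which 31 had tested cytosines (589 in all), was counted in the same way. In mice fed HF, 0 of 500 cytosines with a p-value were higher and 8 lower at an unadjusted p below 0.05, or 1.6% beside 3.72% over the whole table. In mice fed LF 8 of 506 were higher and 8 lower, or 3.16% beside 3.99%. At an FDR of 5%, 0 passed. The 8 lower cytosines in mice fed HF comprised 2 of 55 in ligands and co-receptors (1 in Kl and 1 in Fgfrl1), 3 of 220 in adaptors and kinases of the signal, 0 of 166 in feedback inhibitors (Spry1, Spry2, Spry4, Spred2, Dusp6 and Il17rd) and 3 of 59 in liver targets and regulators, all 3 among the 9 of Hnf4a, a transcription factor of hepatocytes. Over the whole table, 2.19% were lower in mice fed HF, and 2.39% were higher and 1.6% lower in mice fed LF. Hnf4a was singled out after the counts were seen. The same roles in mice fed LF had 0 higher and 1 lower of 56, 4 higher and 1 lower of 223, 2 higher and 4 lower of 167, and 2 higher and 2 lower of 60. Of the enzymes of bile acid synthesis, 0 of the 4 tested cytosines of Cyp7a1 were among them in either comparison, and 1 of the 4 of Cyp8b1 was higher in mice fed LF.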

How the data were processed

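RRBS libraries of 40 livers were analysed. The authors cut DNA with MspI, treated size-selected fragments with bisulfite and, per the submitters' processing notes, aligned reads with Bismark to mm9. For each cytosine and mouse the authors deposited the methylated and the total read count, with the methylated fraction. The total and the fraction were given only where at least 10 reads were present. A methylated count stood without a total at 1386603 entries, which were not used. There were 0 columns of no mapped mouse.

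The 6 genes, the gene lists and the comparisons were chosen with earlier results of these data known. Gene bodies came from GENCODE vM1 on NCBIM37, with 5000 bp to each side. The longest Fgfr2 transcript, more than 10 times the next in length, spans 41 other genes and was left out. Percent methylation was compared per cytosine by a two-sided Student's t-test, with Benjamini-Hochberg adjustment (FDR) over all 262317 cytosines with at least 10 reads in at least 36 mice, leaving out those without variance. Exact permutation p-values are printed for single cytosines. Linear models gave the maternal term and the interaction. The level of a region was the mean over its tested cytosines (at least 3), each centred on its mean over mice. Single cytosines were named by rule: per gene, the smallest p in each maternal comparison, the largest post-weaning term of the linear model, and the lowest and highest mean from 10% to 90%, the neighbours within 100 bp of the Fgfr1 CpG, and the cytosine with the largest ratio of spread to read sampling. The Fgfr1 trio, positions 34066672 and 34066297 and the cytosine next to 137355314 were described after their values were seen. Groups of cytosines were formed with gaps of at most 300 bp. Tests were tried on simulated reads. Alternatives were Welch's test, a quasi-binomial model, limma 3.58.1 (R 4.3.3) on log2 ratios with 0.5 added, other coverage filters, both strands summed and total reads as a covariate. Python 3.11.15 with NumPy 2.4.6 and SciPy 1.17.1 was used.

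Reads at CpGs numbered 2969907 to 23345592 per mouse. Intervals of single values cover counting error at best, since reads without molecular identifiers need not be separate molecules.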

Additional observations from a re-analysis of the deposited data

Results flagged for a closer look

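In 19 of 127 diet groups examined, the highest or lowest mouse lay far from the others by Dixon's criterion. Its nominal rate of about 1 group in 20 holds for normally distributed values. The values here are percentages of few reads, and in some groups most mice lie at an end of the scale. Some cytosines were also named for a small p or a large spread. The count of 19 can therefore not be compared with the nominal rate, and nothing is concluded from it.

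At the Klb cytosines, 1 HF-LF mouse was at 48.6% and 42.9%, with the next at 30% and 21.4%. On the minus strand of the Fgfr1 CpG that chose the gene, 1 LF-LF mouse was at 33.3%, with the next at 12.1%. Upstream of Fgfr1, 1 HF-HF mouse was at 47.4% at position 26625626 and 1 at 42.3% at position 26625685, where 1 HF-LF mouse was at 0%. In the Fgfr1 body, 1 HF-LF mouse was at 76.9% at position 26667317.

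In Fgfr2, single mice stood out at 66.7% at position 137353750 (LF-HF), at 60% at position 137377461 (HF-HF) and at 31.25% at position 137409346 (LF-HF). At position 137409362 they were at 15% (LF-HF), 4% (HF-LF) and 3.45% (HF-HF). That cytosine had been named for the largest spread relative to read sampling, and the 4% and 3.45% are 1 methylated read of 25 and of 29, with all other mice of the same group at 0, where any single read meets the criterion. In Fgfr3, single HF-HF mice were at 21.2% at position 34066523 and at 100% at position 34075963. In Fgfr4, 1 LF-HF mouse was at 71.4% at position 55268127 and 1 LF-LF mouse at 7.27% for the promoter level. In the Fgf21 region, at position 52874747, 1 LF-HF mouse was at 84.6% and 1 HF-HF mouse at 83.3%.

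Of 30 cytosines and levels tried for an interaction of the diets in a linear model over all mice, 2 cytosines had an unadjusted p below 0.05, beside 4.18% of cytosines over the whole table. Both had been named for the smallest maternal p of their gene within 1 post-weaning diet, so the interaction is not independent of that choice. At Fgfr2 position 137355314 the differences differed by -19.5 percentage points (p = 0.00509, FDR 0.868), and at Fgfr3 position 34075963 by -8.93 (p = 0.0209, FDR 0.868).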

How the results depend on the processing

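Read depth limits single values, and Klb, Fgf21 and Fgfr4 were covered at few cytosines. No paired analysis was possible because the mouse numbers of the labels mark no pairs across groups.

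In mice fed HF, the count of cytosines with an unadjusted p below 0.05 was 11 of 182. With the quasi-binomial model it was 7 of 182 (3.85% beside 4.59% of the whole table). With cytosines covered in all 40 mice it was 4 of 17 (23.5%), where 3.94% of the whole table passed. In mice fed LF, the count of 5 of 183 (2.73% beside 3.99% of the whole table) was 3 of 183 with Welch's test (1.64% beside 3.62%). It was 2 of 183 by the quasi-binomial model (1.09% beside 4.69%) and 11 of 199 by limma (5.53% beside 6.14%). With cytosines covered in all mice it was 1 of 17 (5.88% beside 4.74%), and with all cytosines as deposited 8 of 270 (2.96% beside 3.82%). Both strands summed gave 3 of 180 (1.67% beside 3.99%). Over 40 mice, the maternal term gave 1 of 17 and the interaction 3 of 17 with cytosines covered in all mice (4.26% and 4.65% of the whole table). With all cytosines as deposited, the interaction gave 12 of 292 (4.11% beside 4.02% of the whole table). With the whole annotated span of Fgfr2, chosen after seeing the data, the counts were 26 of 671 (3.87%), 27 of 668 (4.04%), 35 of 714 (4.90%) and 29 of 714 (4.06%) in mice fed HF, in mice fed LF, for the maternal term and for the interaction. A minimum of 20 reads left no cytosine of the 6 genes to test. Of 33 alternative counts, 18 stayed within 1.5 times the main count.

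Among levels, 38 of 52 alternatives kept direction and side of the threshold. Not all of these were separate: the Fgfr3 promoter and gene levels hold the same cytosines, so their shared alternatives entered under both names. For Fgfr4, the promoter around the first start held the same 4 cytosines as the promoter, so this alternative could not differ. In mice fed HF, the Fgfr2 promoter passed an unadjusted p of 0.05 with reads pooled (4.04 percentage points) and the Fgfr4 promoter with all cytosines as deposited (1.47). The Fgfr3 level turned to 4.25 over the 5 cytosines covered in all mice and passed as well (p = 0.0142), the Fgfr2 gene level to 3.08 with reads pooled, and with all cytosines as deposited the Fgfr4 gene level to 1.07 and the Fgf21 level to -0.426. In mice fed LF, the Fgf21 level passed with all cytosines as deposited (1.43) and the Fgfr4 gene level with reads pooled (7.19). Signs turned for the Fgfr1 promoter as deposited (0.0830), the Fgfr1 gene level with reads pooled (1.13), the Fgfr3 level over the 5 cytosines (-0.0276) and the Fgfr3 promoter around its first start (-0.399), the last chosen after seeing the data. The causes were not tested.

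Of 39 alternatives for single cytosines, 31 were counted as unchanged, 2 turned sign and 6 lost an unadjusted p below 0.05. The 31 kept direction and side of the threshold, except that Fgfr2 position 137377461 had no p-value. Its post-weaning difference in the offspring of HF dams fell from 5.25 to 0.864 percentage points without the HF-HF mouse numbered 8. It was counted as unchanged because the shift was below the SD of the HF-HF group. The 2 that turned sign were both Klb cytosines in mice fed LF without the HF-LF mouse numbered 2, at -0.0626 and -2.97. With the quasi-binomial model, the p was lost at Fgfr4 position 55274175, Fgfr3 position 34075963, Fgfr2 position 137355314 and Fgfr1 position 26679977. The last was also lost with Welch's test and limma. Without the mouse with the fewest reads, chosen after seeing the data, the count in mice fed HF was 10.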

Other observations

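Both strands of the same CpG were listed at 21 CpGs of the 6 genes. Outside the Fgfr1 CpG that chose the gene, the mean of the minus strand differed from that of the plus strand by -3.78 percentage points at an intronic Fgfr3 CpG (19.2% and 15.4%), by -1.97 at an Fgfr3 start CpG (7.40% and 5.43%) and by less at the others. At the Fgfr1 CpG itself the strands differed by 2.90 (5.11% and 8.01%).

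At 3 of the 12 borders of the regions, the nearest listed cytosine outside lay at most 1921 bp away. Beyond the lower border of Klb, the nearest listed cytosine, 1786 bp outside, was at 85.6%, and beyond its upper border one 1921 bp outside was at 3.88%. Just outside the Fgfr2 region, 808 bp before it, a cytosine was at 96.2%. Inside the borders, the nearest were the Fgfr4 cytosine at 63.3%, 945 bp inside, and the Fgf21 cytosine at 93.2%, 991 bp inside.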
